A study of Mus musculus with 12 samples.

Results

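The genes described here encode the matrix metalloproteinases (Mmp), the disintegrin-like metalloproteinases with thrombospondin motifs (Adamts), the Adamts-like proteins (Adamtsl) and the tissue inhibitors of metalloproteinases (Timp). All rows whose gene name was Mmp, Adamts or Adamtsl with a number, or Timp1 to Timp4, were taken, which gave 51 of the 54532 rows of the count table. Of these, 23 were Mmp, 19 Adamts, 5 Adamtsl and 4 Timp genes. Total RNA of whole kidneys from 12 C57BL/6 mice (C57BL/6 J in the study's methods) aged 18 days was sequenced, with 3 mice in each of 4 groups, to ask how cystic disease and removal of the miR-17 motif from Pkd2 change kidney transcripts.

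All 12 mice carried the hypomorphic RC allele of Pkd1, which encodes polycystin-1, over a floxed Pkd1 allele. The noncystic control groups lacked Cre and are written Pkd1 RC/+. In the cystic groups, written Pkd1 RC/-, Ksp-Cre had deleted the floxed allele. Ksp-Cre is driven by the cadherin-16 promoter and acts in tubule epithelium, so the other cells of these kidneys kept the floxed allele. Within each state, one group was Pkd2 +/+ and the other was homozygous for Pkd2 Δ17, a germline CRISPR deletion of the miR-17 binding motif in the 3′-UTR of Pkd2, which encodes polycystin-2. The sample titles write these 4 groups Pkd1_RC, Pkd1_RC_Pkd2_UTR_DD, Pkd1F_RC and Pkd1F_RC_Pkd2_UTR_DD. The labels gave no sex. Mice 19 to 21 were noncystic Pkd2 +/+, mice 22 to 24 noncystic Pkd2 Δ17/Δ17, mice 25 to 27 cystic Pkd2 +/+ and mice 28 to 30 cystic Pkd2 Δ17/Δ17, and values are listed in that order throughout.

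Matrix metalloproteinases are zinc proteases that are made as inactive precursors and cleave collagens, gelatin, elastin, proteoglycans and cell surface proteins. Adamts proteases cut a narrower set of matrix proteins, among them aggrecan and versican, the N-terminal propeptides of fibrillar collagens and von Willebrand factor, while Adamtsl proteins share their domains but lack the protease and associate with fibrillin microfibrils. The Timp proteins bind the active site of these proteases. In kidneys, the enzymes and their inhibitors take part in turnover of the interstitial matrix and of tubular basement membranes, and they have long been studied in cystic and fibrotic kidney disease.

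The libraries held 18800307 to 24453033 reads assigned to genes. Counts per 1e6 reads (CPM) below are scaled by TMM, a factor estimated from the bulk of the genes, which lay at 0.933 to 0.972 in the noncystic and 1.04 to 1.08 in the cystic libraries. The 10 genes with most reads took 8.91% to 9.76% of the reads in noncystic and 4.86% to 5.93% in cystic libraries. Pkd2 was measured at 217, 194 and 219 CPM in the noncystic and 277, 286 and 271 in the noncystic Pkd2 Δ17/Δ17 mice, and at 232, 233 and 213 CPM in the cystic and 337, 336 and 307 in the cystic Pkd2 Δ17/Δ17 mice. The deletion libraries stood above their partners in both states, by 0.53 ± 0.08 on the log2 scale in cystic (adjusted p = 0.0025) and 0.40 ± 0.08 in noncystic mice, where the unadjusted p was 8.2e-05 and the adjusted p 0.77. All 9 kidney tubule and glomerulus markers had reads in every group, at a summed 10007 to 12182 CPM in noncystic and 5699 to 7708 CPM in cystic Pkd2 +/+ mice. Transcripts of the adrenal gland, a neighbouring organ, stood out in 2 libraries. Cyp11a1, Cyp11b1 and Cyp21a1 summed to 25.5 CPM in mouse 27 and 191 CPM in mouse 30, against 0.104 to 0.783 CPM in the other 10 mice. For each comparison that rests on these libraries, the number of genes of the family called is therefore also given without them. Counts per class, sums, ratios and the lists of other genes are given with them only.

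The 4 groups were set against each other with edgeR's quasi-likelihood test, and p-values were adjusted by Benjamini and Hochberg over all 24642 genes that passed a cutoff on mean expression. A gene is said to rise or fall where the adjusted p was under 0.05. Of the 51 genes, 2 had no read in any mouse, Mmp1a and Mmp1b, and 2 had reads below the cutoff, Mmp20 and Mmp21 with at most 3 reads in a mouse. The other 47 were tested, and 4 of these, Mmp7, Mmp8, Mmp10 and Mmp27, had fewer than 10 reads in every mouse. At least 10 reads in every mouse were seen for 34 genes and at least 100 for 22. Exons of 13 of the 51 genes overlap those of a gene on the other strand, and since the strand setting of the counting is not given in the sources used here, reads there could not be assigned to one gene. These were Adamts4, Adamts7, Adamts8, Adamts9, Mmp1b, Mmp7, Mmp11, Mmp12, Mmp19, Mmp24, Mmp28, Timp3 and Timp4, and their values are uncertain to that extent.

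A run of 10 Mmp genes lies together on mouse chromosome 9 (GRCm38, chr9:7272514-7699585), within 427 kb. In GENCODE's annotation it holds Mmp13, Mmp12, Mmp1b, Mmp3, Mmp1a, Mmp10, Mmp8, Mmp27, Mmp20 and Mmp7, which encode collagenases, stromelysins, the macrophage elastase Mmp12, the matrilysin Mmp7 and the enamel protease Mmp20. Mmp1a is annotated as a polymorphic pseudogene. Only 3 of the 10, Mmp3, Mmp12 and Mmp13, reached 10 reads in any mouse. Promoters of this cluster are known for sites of AP-1, the Fos and Jun transcription factors. RefSeq windows (GRCm38.p6) from 250 bases before to 50 after the start were matched for 36 of the 51 genes, and 8 of the 36 (22.2%) held the AP-1 letters TGANTCA, a motif that reads the same on both strands, against 8.97% of the 27025 genes with a window. All 8 were in the chromosome 9 cluster. The stretches around the match are shown for the 3 expressed genes and for 3 of the silent ones, with the motif in capitals, to show that both kinds hold it close to the start.
Mmp12 (chr9:7347330-7347336, first motif base at -44): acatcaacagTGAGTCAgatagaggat
Mmp3 (chr9:7445776-7445782, at -46): gaagcaattaTGAGTCAgttttcgggt
Mmp13 (chr9:7272479-7272485, at -35): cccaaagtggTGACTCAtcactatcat
Mmp10 (chr9:7502279-7502285, at -63): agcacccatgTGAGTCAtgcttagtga
Mmp7 (chr9:7692027-7692033, at -63): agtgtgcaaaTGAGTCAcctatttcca
Mmp1a (chr9:7464068-7464074, at -73): ttgtcaaccaTGAGTCAcatagcctct

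The expressed genes of the cluster held the motif, as did the silent ones except Mmp8 and Mmp27, for which no match was found. Whether Mmp8 and Mmp27 had a matched window is not given here. The part of the motif in the levels of these genes was not tested. Between cystic and noncystic Pkd2 +/+ mice, Mmp12 and Mmp3 rose, and Mmp13 had a log2 difference of -0.92 with an adjusted p of 0.069.

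The motif removed from Pkd2 is read by miR-17, so the 3′-UTRs of the family were searched for the same kind of site. The mature miRNA is printed with its seed, bases 2 to 8, in capitals, and each site with the letters that pair with the seed in capitals, and with the A opposite base 1 where there is one.
mmu-miR-17-5p: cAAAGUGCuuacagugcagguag
Mmp24 (chr2:155817746-155817753, plus strand): tactttgcaaaGCACTTTAttagctcacag
Timp2 (chr11:118301836-118301842, minus strand): cattagactttGCACTTTtaaaaaaaaaa
Adamts5 (chr16:85859623-85859629, minus strand): gtgtataaagtGCACTTTgtgagtttata
Mmp23 (chr4:155650663-155650669, minus strand): cagcagataaaGCACTTTctctctga
Adamts2 (chr11:50805477-50805483, plus strand): ggtgggagcccCACTTTAcctttttcttt

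These stand for the 8 of 51 genes (15.7%) with a site of 7 or 8 bases, against 19.3% of the 21173 genes with an annotated 3′-UTR. The median 3′-UTR was 1783 bases in the 51 genes and 1084 bases in all genes, and the shares are not corrected for length. Mmp24, a membrane-type enzyme of the nervous system, had the only site of 8 bases and 2 to 13 reads per library. The other 3 genes with a site were Mmp15, Mmp25 and Timp3. By edgeR's quasi-likelihood test none of the 8 was called between cystic Pkd2 Δ17/Δ17 and cystic Pkd2 +/+ mice, where 1.19% of all genes rose and 1.04% fell. Adamts2 was the 1 of the 8 with an unadjusted p under 0.05, and it was called lower by DESeq2, with no cutoff and without mouse 25. These are matches of letters, with no measurement of binding.

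Cystic kidneys had more transcript of most of the abundant enzymes and of 2 inhibitors. Between cystic and noncystic Pkd2 +/+ mice, 19 of the 47 genes tested rose (40.4%) and 6 fell (12.8%), while over all genes tested 16.9% rose and 14.2% fell. The median log2 difference was 0.32 over the 47 genes and 0.02 over all genes. Timp1, Timp2, Mmp2, Mmp14, Mmp12, Adamts1, Adamts2, Adamts4 and Adamts16 were among those that rose, and Timp4, Mmp9, Adamts14 and Adamts15 among those that fell. An unadjusted p under 0.05 was seen for 30 of the 47. Without the libraries of mice 27 and 30, 22 genes were called, 16 higher and 6 lower, of which 21 were among the 25. Of the 25 calls, 16 held under every one of the 15 other settings tried, and the other 9 are named where they are described.

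**Figure D1:**
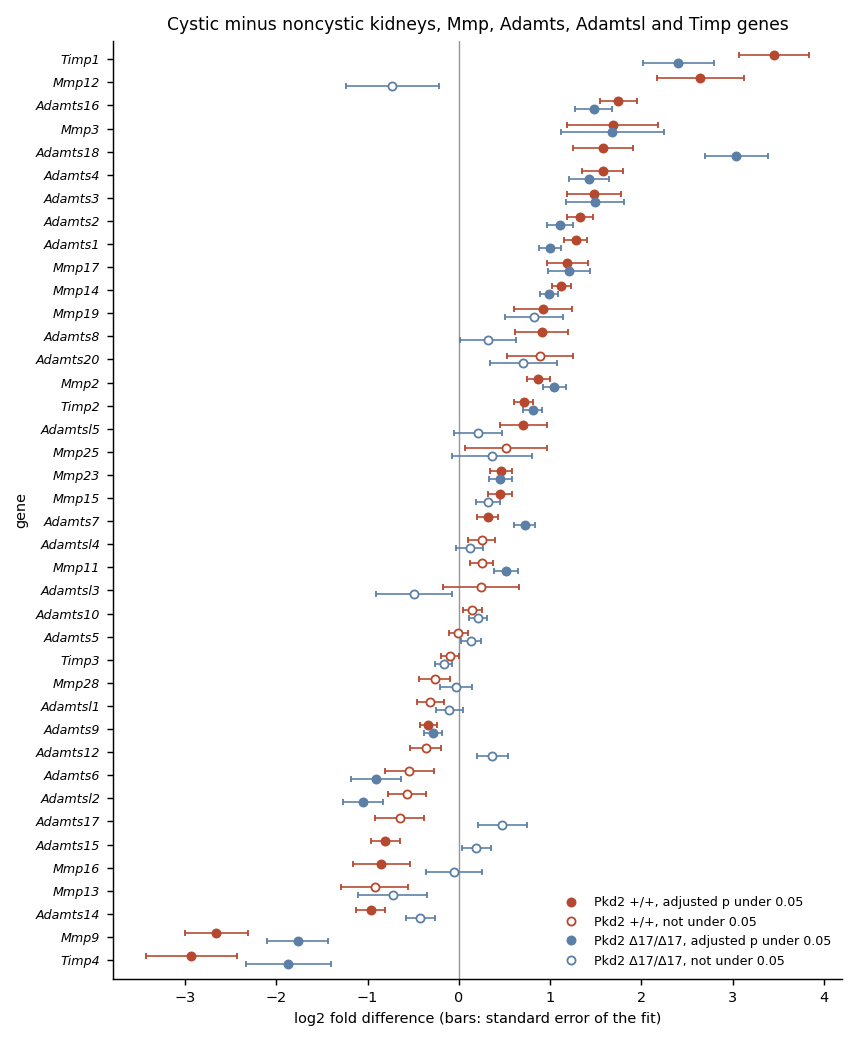
Log2 fold difference between cystic and noncystic kidneys (horizontal axis) of the 40 genes with at least 20 reads in some mouse, in Pkd2 +/+ mice (red) and in Pkd2 Δ17/Δ17 mice (blue). Bars are standard errors, filled points had an adjusted p under 0.05. Timp1 lies farthest to the right in Pkd2 +/+ mice and Timp4 and Mmp9 farthest to the left. Mmp12 is at 2.65 in Pkd2 +/+ and -0.73 in Pkd2 Δ17/Δ17 mice.

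Of the inhibitors, Timp1 changed most. This small secreted inhibitor, encoded on the X chromosome (chrX:20870166-20874735, plus strand), is induced in many forms of tissue injury. It was measured at 1.35, 1.48 and 1.17 CPM in noncystic, 2.13, 1.20 and 0.935 in noncystic Pkd2 Δ17/Δ17, 14.98, 15.6 and 13.3 in cystic and 4.52, 4.70 and 13.5 in cystic Pkd2 Δ17/Δ17 mice. All 6 cystic libraries lay above all 6 noncystic ones, and mouse 30 lay among the cystic Pkd2 +/+ mice, away from the other 2 of its group. The log2 difference between cystic and noncystic Pkd2 +/+ mice was 3.45 ± 0.39 (standard error), which is 10.95-fold, with an adjusted p of 3.4e-06. In Pkd2 Δ17/Δ17 mice it was 2.41 ± 0.39, adjusted p = 0.00021.

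With the motif deletion, Timp1 in cystic kidneys differed by -0.95 ± 0.33 on the log2 scale and did not pass the test, with an adjusted p of 0.16. This value turned on 1 library. Without mouse 30, in which the adrenal transcripts were highest, the log2 difference was -1.67 and the adjusted p 0.0018, and without mice 27 and 30 together it was -1.73 and 0.0078. Without mouse 28 the adjusted p was 0.49 and without mouse 29 it was 0.46. Whether the adrenal tissue contributed Timp1 transcripts in mouse 30 was not tested.

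Timp2, which both inhibits Mmp2 and helps Mmp14 to activate it, was among the most abundant genes of the family. Its levels were 153, 175 and 148 CPM in noncystic, 152, 131 and 126 in noncystic Pkd2 Δ17/Δ17, 219.8, 289 and 273 in cystic and 237, 235 and 245 in cystic Pkd2 Δ17/Δ17 mice. The cystic and noncystic libraries did not overlap, with a log2 difference of 0.71 ± 0.10 in Pkd2 +/+ mice (adjusted p = 4.8e-05) and 0.81 ± 0.10 in Pkd2 Δ17/Δ17 mice (adjusted p = 3.0e-05).

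Timp3 binds to the matrix and also inhibits Adam and Adamts proteases. It lay at 355, 336 and 426 CPM in noncystic, 365, 396 and 405 in noncystic Pkd2 Δ17/Δ17, 378, 335 and 334 in cystic and 373, 331 and 335 in cystic Pkd2 Δ17/Δ17 mice, and the cystic and noncystic Pkd2 +/+ groups overlapped. The log2 difference was -0.09 ± 0.10 with an adjusted p of 0.52, and its sign changed when libraries were scaled by their totals. The exons of Timp3 overlap those of Syn3 on the other strand over 1733 bases.

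Timp4, the least abundant inhibitor, fell. It was measured at 3.22, 6.44 and 2.95 CPM in noncystic, 4.41, 5.02 and 2.42 in noncystic Pkd2 Δ17/Δ17, 0.619, 0.343 and 0.659 in cystic and 1.78, 0.293 and 1.15 in cystic Pkd2 Δ17/Δ17 mice. No cystic library reached the lowest noncystic one, and the log2 difference of -2.93 ± 0.50 in Pkd2 +/+ mice had an adjusted p of 0.00021. In Pkd2 Δ17/Δ17 mice it was -1.87 ± 0.46, adjusted p = 0.0069. With the deletion in cystic kidneys the difference was 0.98 ± 0.54, which did not pass the test (adjusted p = 0.44).

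**Figure D2:**
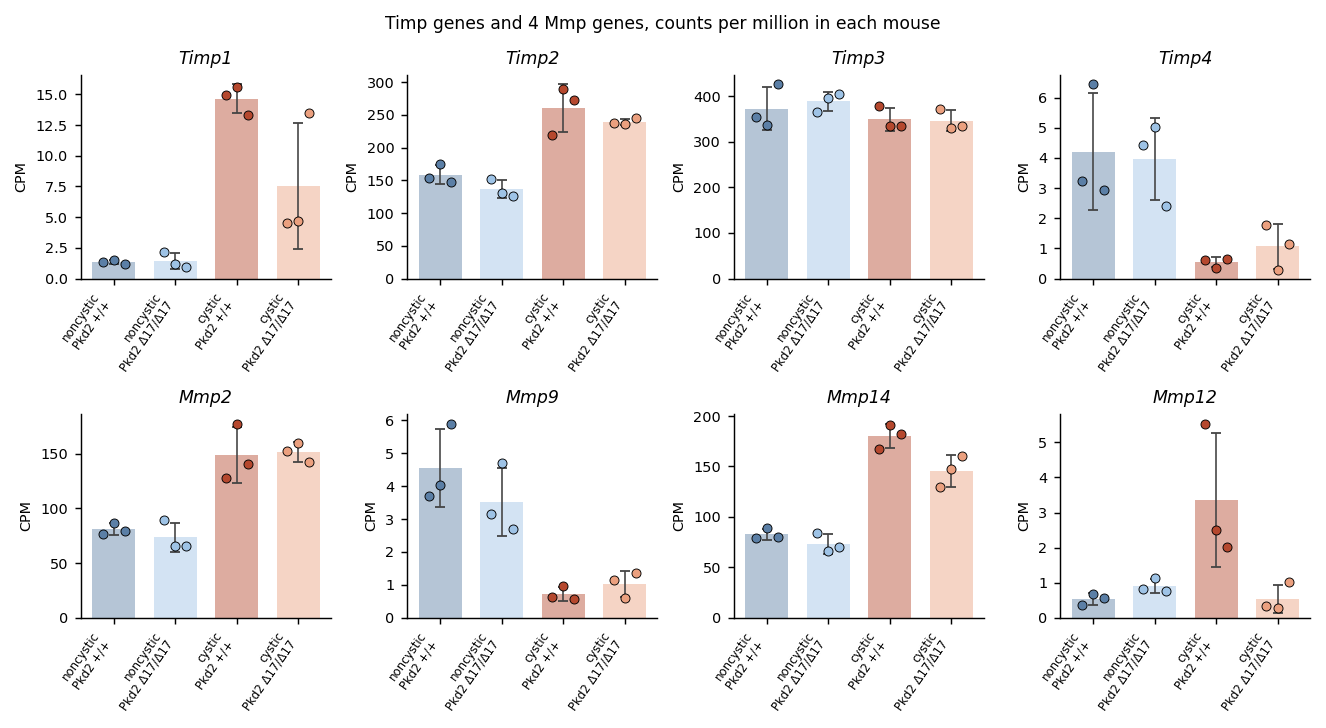
CPM (vertical axes, from 0) of the 4 Timp genes and of Mmp2, Mmp9, Mmp14 and Mmp12 in each mouse (points), with the mean of 3 mice (bars) and SD (error bars) for each of the 4 groups. Timp1, Timp2, Mmp2 and Mmp14 stand higher in both cystic groups, Timp4 and Mmp9 lower, and Mmp12 stands high in the cystic Pkd2 +/+ group only, at 2.02 to 5.54 CPM.

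The gelatinases Mmp2 and Mmp9, which degrade denatured collagen and basement membrane collagen, went in opposite directions. Mmp2 (chr8:92827291-92853420, plus strand), mostly a product of stromal cells, was measured at 77.0, 87.1 and 79.8 CPM in noncystic, 89.1, 65.8 and 65.6 in noncystic Pkd2 Δ17/Δ17, 128, 178 and 140.4 in cystic and 153, 160.1 and 142 in cystic Pkd2 Δ17/Δ17 mice. All cystic libraries lay above all noncystic ones, with log2 differences of 0.87 ± 0.12 in Pkd2 +/+ mice (adjusted p = 3.8e-05) and 1.04 ± 0.12 in Pkd2 Δ17/Δ17 mice (adjusted p = 1.5e-05).

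Mmp9 (chr2:164940780-164955850, plus strand), known best from neutrophils and macrophages, fell. It was measured at 3.69, 4.05 and 5.90 CPM in noncystic, 3.16, 4.69 and 2.70 in noncystic Pkd2 Δ17/Δ17, 0.619, 0.979 and 0.565 in cystic and 1.15, 0.587 and 1.35 in cystic Pkd2 Δ17/Δ17 mice. The groups did not overlap between states, and the log2 difference was -2.66 ± 0.34 in Pkd2 +/+ mice (adjusted p = 1.5e-05) and -1.76 ± 0.33 in Pkd2 Δ17/Δ17 mice (adjusted p = 0.00087). The 10 neutrophil markers looked at together summed to 2.85 to 3.74 CPM in noncystic and 1.81 to 2.94 CPM in cystic Pkd2 +/+ mice, with 6 of the 10 under 10 reads in every mouse and none called. In the same mice all 10 macrophage markers rose, from a summed 172 to 181 CPM to 429 to 576 CPM, where 16.9% of all genes rose. In whole kidneys, fewer cells of a type and less RNA per cell cannot be told apart.

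Among the 6 membrane-type enzymes, which sit on the cell surface, 3 rose and 1 fell between cystic and noncystic Pkd2 +/+ mice. The shares of all genes tested were 16.9% higher and 14.2% lower. Mmp14 (MT1-MMP; chr14:54431612-54445364, plus strand), a collagenase of the cell surface and the main activator of Mmp2, was measured at 79.2, 89.1 and 79.8 CPM in noncystic, 84.2, 66.0 and 69.9 in noncystic Pkd2 Δ17/Δ17, 167, 191 and 183 in cystic and 129, 148 and 160.0 in cystic Pkd2 Δ17/Δ17 mice. The states did not overlap, and within the cystic mice each Pkd2 Δ17/Δ17 library lay below each Pkd2 +/+ library. The log2 difference was 1.12 ± 0.10 between states in Pkd2 +/+ mice (adjusted p = 3.8e-07) and -0.31 ± 0.10 with the deletion, which did not pass the test (adjusted p = 0.13).

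Mmp17, a membrane enzyme held by a lipid anchor, rose from 6.23, 4.96 and 5.29 CPM in noncystic to 8.87, 15.9 and 12.9 CPM in cystic Pkd2 +/+ mice, and was at 5.67, 5.24 and 3.08 CPM in noncystic and 10.3, 11.5 and 10.5 CPM in cystic Pkd2 Δ17/Δ17 mice. The log2 differences between states were 1.19 ± 0.22 (adjusted p = 0.00052) and 1.21 ± 0.23 (adjusted p = 0.00080). Mmp15, a close relative of Mmp14, was at 17.9, 26.3 and 22.9 CPM in noncystic and 28.3, 31.7 and 31.9 CPM in cystic Pkd2 +/+ mice, a log2 difference of 0.45 ± 0.13 (adjusted p = 0.013) that was lost without mouse 19 and without mice 27 and 30 together. In Pkd2 Δ17/Δ17 mice Mmp15 was at 20.7, 17.5 and 22.996 CPM without and 25.9, 26.4 and 23.9 CPM with cysts, and did not pass the test (adjusted p = 0.10). Mmp16 fell by 0.85 ± 0.31 on the log2 scale in Pkd2 +/+ mice, from 1.73 to 1.88 CPM to 0.800 to 1.37 CPM, with an adjusted p of 0.048 that did not hold in 10 of the 15 other settings. Mmp24 and Mmp25, both under 1.2 CPM in every mouse, did not pass.

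Mmp12, the elastase of macrophages (chr9:7344381-7369499, plus strand), gave the largest difference with the motif deletion among the 40 genes with at least 20 reads in some mouse. Its levels were 0.363, 0.684 and 0.560 CPM in noncystic, 0.817, 1.15 and 0.770 in noncystic Pkd2 Δ17/Δ17, 5.54, 2.497 and 2.02 in cystic and 0.337, 0.293 and 1.01 in cystic Pkd2 Δ17/Δ17 mice, which were 7 to 21 reads, 14 to 21, 43 to 143 and 6 to 21 reads. The cystic Pkd2 +/+ mice lay above all other mice, and the cystic Pkd2 Δ17/Δ17 mice overlapped both noncystic groups. Group means were 0.536 ± 0.162 (SD, n = 3), 0.911 ± 0.205, 3.35 ± 1.91 and 0.547 ± 0.402 CPM. The log2 difference was 2.65 ± 0.48 between states in Pkd2 +/+ mice, or 6.27-fold (adjusted p = 0.00035), and -2.61 ± 0.47 with the deletion in cystic mice, or 6.11-fold lower (adjusted p = 0.0091). Between cystic and noncystic Pkd2 Δ17/Δ17 mice it was -0.73 ± 0.51 (adjusted p = 0.36).

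The deletion's effect on Mmp12 differed between states by -3.38 ± 0.70 on the log2 scale, which had an unadjusted p of 0.00018 and did not pass the test (adjusted p = 0.12). In cystic mice the call was lost without mouse 28 (adjusted p = 0.065), without mouse 29 (0.064) and in a fit of the 2 groups alone (0.055), and it held without mice 27 and 30 (log2 difference -3.65, adjusted p = 0.0036). The 10 macrophage markers summed to 429 to 576 CPM in cystic Pkd2 +/+ and 304 to 414 CPM in cystic Pkd2 Δ17/Δ17 mice. With the deletion 3 of the 10 fell, beside 1.04% of all genes, and the others were not called. The part of these markers in the change of Mmp12 was not tested. Mmp7, the matrilysin, had at most 5 reads in a library.

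Of the stromelysins, which cut proteoglycans and other matrix proteins, Mmp3 rose and Mmp11 passed in 1 genotype. Mmp3, made by fibroblasts, lay at 0.519, 0.399 and 0.305 CPM in noncystic, 0.381, 0.218 and 0.110 in noncystic Pkd2 Δ17/Δ17, 1.70, 1.13 and 1.13 in cystic and 0.288, 0.734 and 1.30 in cystic Pkd2 Δ17/Δ17 mice. Its log2 difference was 1.69 ± 0.50 in Pkd2 +/+ mice (adjusted p = 0.016) and 1.68 ± 0.57 in Pkd2 Δ17/Δ17 mice, whose groups overlapped (adjusted p = 0.041), and the first call was lost without any 1 of mice 20, 21 and 25. The second was lost in 7 of the 15 other settings, those without any 1 of mice 23, 24, 29 and 30, without mice 27 and 30 together, with an Xist covariate and in a fit of the 2 groups alone. Mmp11, or stromelysin-3, was far more abundant, at 30.9, 29.996 and 33.2 CPM in noncystic and 37.9, 37.6 and 36.3 CPM in cystic Pkd2 +/+ mice (log2 difference 0.25 ± 0.13, adjusted p = 0.16). In Pkd2 Δ17/Δ17 mice it rose from 31.01, 18.99 and 25.6 CPM to 38.1, 36.1 and 33.9 CPM (0.52 ± 0.13, adjusted p = 0.0071). The difference of these 2 effects was 0.27 ± 0.18 and did not pass (adjusted p = 0.75). Mmp10 had at most 4 reads in a library.

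Of the 4 collagenases, which cut fibrillar collagen, only Mmp13 reached 10 reads in any mouse. It was at 2.28, 2.79 and 3.05 CPM in noncystic, 1.36, 2.24 and 2.64 in noncystic Pkd2 Δ17/Δ17, 0.736, 1.86 and 1.74 in cystic and 1.73, 0.734 and 1.30 in cystic Pkd2 Δ17/Δ17 mice. Each cystic Pkd2 +/+ library lay below each noncystic Pkd2 +/+ library, but the difference did not pass the test, as given above. Mmp8, the collagenase of neutrophils, had at most 4 reads in a library.

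The other enzymes fall outside these classes. Mmp23, a membrane-bound enzyme of unusual structure, rose from 26.4, 24.4 and 20.1 CPM to 31.0, 32.3 and 34.4 CPM between noncystic and cystic Pkd2 +/+ mice and from 21.1, 16.5 and 22.4 CPM to 26.8, 26.02 and 29.6 CPM in Pkd2 Δ17/Δ17 mice. Its log2 differences were 0.46 ± 0.12 (adjusted p = 0.0073) and 0.46 ± 0.12 (adjusted p = 0.012), of which the first was lost without mouse 21 and the second without mouse 23, without mouse 30 and without mice 27 and 30 together. Mmp19 was at 1.35, 1.996 and 1.37 CPM in noncystic and 2.36, 4.16 and 2.45 CPM in cystic Pkd2 +/+ mice (0.92 ± 0.31, adjusted p = 0.034). In Pkd2 Δ17/Δ17 mice it was at 1.09, 1.80 and 1.595 CPM without and 3.08, 1.76 and 3.13 CPM with cysts and did not pass (adjusted p = 0.076). Mmp28, or epilysin, was at 6.96, 5.53 and 7.33 CPM in noncystic, 6.05, 7.64 and 5.83 in noncystic Pkd2 Δ17/Δ17, 5.11, 5.63 and 5.79 in cystic and 6.97, 5.58 and 6.54 in cystic Pkd2 Δ17/Δ17 mice. These groups overlapped, and Mmp28 did not pass in Pkd2 +/+ mice (-0.26 ± 0.17, adjusted p = 0.28). The Mmp19 call was lost in 4 of the 15 other settings.

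Of the 7 Adamts genes whose enzymes cleave aggrecan and versican, the large proteoglycans of the hyalectan family, 3 rose and 2 fell between cystic and noncystic Pkd2 +/+ mice. Of all genes tested, 16.9% rose and 14.2% fell there. Adamts1 (chr16:85793827-85803113, minus strand), a protease needed for normal development of the urinary tract, was the most abundant. Its levels were 80.7, 81.7 and 68.8 CPM in noncystic, 65.8, 91.3 and 79.6 in noncystic Pkd2 Δ17/Δ17, 198, 205 and 157 in cystic and 140.1, 164 and 168 in cystic Pkd2 Δ17/Δ17 mice. All cystic libraries lay above all noncystic ones, with log2 differences of 1.28 ± 0.12 (adjusted p = 8.1e-07) and 0.997 ± 0.12 (adjusted p = 2.1e-05).

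Adamts4, a main aggrecanase, lay at 5.56, 6.10 and 4.93 CPM in noncystic, 5.39, 4.58 and 7.04 in noncystic Pkd2 Δ17/Δ17, 12.002, 22.8 and 14.7 in cystic and 12.9, 17.3 and 15.5 in cystic Pkd2 Δ17/Δ17 mice. The states did not overlap, and the log2 differences were 1.57 ± 0.22 (adjusted p = 3.1e-05) and 1.43 ± 0.22 (adjusted p = 0.00015). Adamts5, the other main aggrecanase, was measured at 63.5 to 78.0 CPM in noncystic and 62.1 to 80.1 CPM in cystic Pkd2 +/+ mice, which overlapped (-0.01 ± 0.11, adjusted p = 0.98). Adamts8 rose from 1.17 to 1.54 CPM to 2.21 to 3.33 CPM (0.91 ± 0.29, adjusted p = 0.023). That call was lost without mouse 19, 21 or 25 and with an Xist covariate. Adamts9 fell from 46.4 to 51.8 CPM to 36.7 to 41.2 CPM (-0.33 ± 0.10, adjusted p = 0.012), a call lost without mouse 19 and with libraries scaled by their totals, and in Pkd2 Δ17/Δ17 mice a fall of 0.28 ± 0.10 (adjusted p = 0.040) did not hold in 9 of the 15 other settings. Adamts20, under 2 CPM in every mouse, did not pass.

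Adamts15 (chr9:30899155-30922452, minus strand), a versican-cleaving protease, was the other gene that passed the test for the motif deletion. Levels were 53.0, 41.2 and 51.1 CPM in noncystic, 42.1, 41.4 and 43.7 in noncystic Pkd2 Δ17/Δ17, 24.5, 35.1 and 23.7 in cystic and 58.1, 49.98 and 37.1 in cystic Pkd2 Δ17/Δ17 mice. The cystic Pkd2 +/+ mice lay below all other mice, and the cystic Pkd2 Δ17/Δ17 mice overlapped both noncystic groups. Group means were 48.4 ± 6.36 (SD, n = 3), 42.4 ± 1.16, 27.7 ± 6.34 and 48.4 ± 10.6 CPM. The log2 difference was -0.81 ± 0.16 between states in Pkd2 +/+ mice (adjusted p = 0.00082), 0.80 ± 0.16 with the deletion in cystic mice (adjusted p = 0.017) and 0.19 ± 0.16 between states in Pkd2 Δ17/Δ17 mice (adjusted p = 0.45).

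The deletion's effect on Adamts15 differed between states by 0.997 ± 0.22 on the log2 scale, with an unadjusted p of 0.00040 and an adjusted p of 0.16. In cystic mice the call was lost without mouse 27 (adjusted p = 0.091), 28 (0.11) or 29 (0.074) and in a fit of the 2 groups alone (0.070), and it held without mice 27 and 30 together (log2 difference 0.86, adjusted p = 0.017). The 9 kidney markers summed to 5699 to 7708 CPM in cystic Pkd2 +/+ and 7575 to 9196 CPM in cystic Pkd2 Δ17/Δ17 mice, ranges that overlapped. With the deletion 2 of the 9 rose and none fell, beside 1.19% and 1.04% of all genes. The part of these markers in the change was not tested.

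The 3 procollagen N-propeptidases, which trim newly made fibrillar collagen, were split. Adamts2 (chr11:50602084-50807573, plus strand), the main enzyme for collagen I, was measured at 41.6, 41.7 and 38.7 CPM in noncystic, 39.5, 28.6 and 35.4 in noncystic Pkd2 Δ17/Δ17, 82.9, 123 and 101.2 in cystic and 61.8, 78.3 and 83.5 in cystic Pkd2 Δ17/Δ17 mice. The states did not overlap, with a log2 difference of 1.33 ± 0.14 in Pkd2 +/+ mice (adjusted p = 2.2e-06) and 1.11 ± 0.14 in Pkd2 Δ17/Δ17 mice (adjusted p = 2.9e-05). With the deletion in cystic mice it was -0.46 ± 0.14 and did not pass (adjusted p = 0.11).

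Adamts3, which acts on collagen II and on the lymphangiogenic factor Vegfc, rose from 0.675, 0.969 and 1.22 CPM in noncystic to 3.02, 2.30 and 2.68 CPM in cystic Pkd2 +/+ mice, and from 0.872, 0.436 and 0.605 CPM to 1.73, 1.91 and 1.78 CPM in Pkd2 Δ17/Δ17 mice. The log2 differences were 1.48 ± 0.30 (adjusted p = 0.00091) and 1.49 ± 0.32 (adjusted p = 0.0023). Adamts14, the closest relative of Adamts2, fell from 8.72, 9.87 and 11.3 CPM to 4.96, 5.39 and 4.94 CPM in Pkd2 +/+ mice (-0.97 ± 0.16, adjusted p = 0.00018). In Pkd2 Δ17/Δ17 mice Adamts14 was at 6.54, 8.24 and 8.86 CPM without and 5.38, 5.87 and 6.40 CPM with cysts (-0.42 ± 0.16, adjusted p = 0.075).

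The paired relatives Adamts16 and Adamts18 both rose. Adamts16 (chr13:70727802-70841811, minus strand), a gene of the developing kidney and gonad that has been linked to blood pressure in rats, had the largest relative rise of an Adamts gene in Pkd2 +/+ mice. Its levels were 18.4, 16.8 and 20.2 CPM in noncystic, 19.6, 21.3 and 20.6 in noncystic Pkd2 Δ17/Δ17, 80.3, 43.4 and 62.5 in cystic and 43.1, 53.7 and 74.5 in cystic Pkd2 Δ17/Δ17 mice. The noncystic values lay within a narrow range and far below the cystic ones, with log2 differences of 1.75 ± 0.20 (adjusted p = 3.9e-06) and 1.48 ± 0.20 (adjusted p = 4.1e-05).

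Adamts18 was lower in level, at 2.44, 1.31 and 0.967 CPM in noncystic, 1.42, 0.764 and 0.605 in noncystic Pkd2 Δ17/Δ17, 5.42, 4.70 and 4.002 in cystic and 9.90, 7.09 and 6.06 in cystic Pkd2 Δ17/Δ17 mice. In cystic mice each Pkd2 Δ17/Δ17 library lay above each Pkd2 +/+ library. The log2 difference between states was 1.58 ± 0.33 in Pkd2 +/+ mice (adjusted p = 0.0012) and 3.04 ± 0.35 in Pkd2 Δ17/Δ17 mice (adjusted p = 1.0e-05). The difference of the 2 effects, 1.46 ± 0.48, had an unadjusted p of 0.0074 and did not pass (adjusted p = 0.40), and neither did the deletion in cystic mice (0.70 ± 0.29, adjusted p = 0.27).

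**Figure D3:**
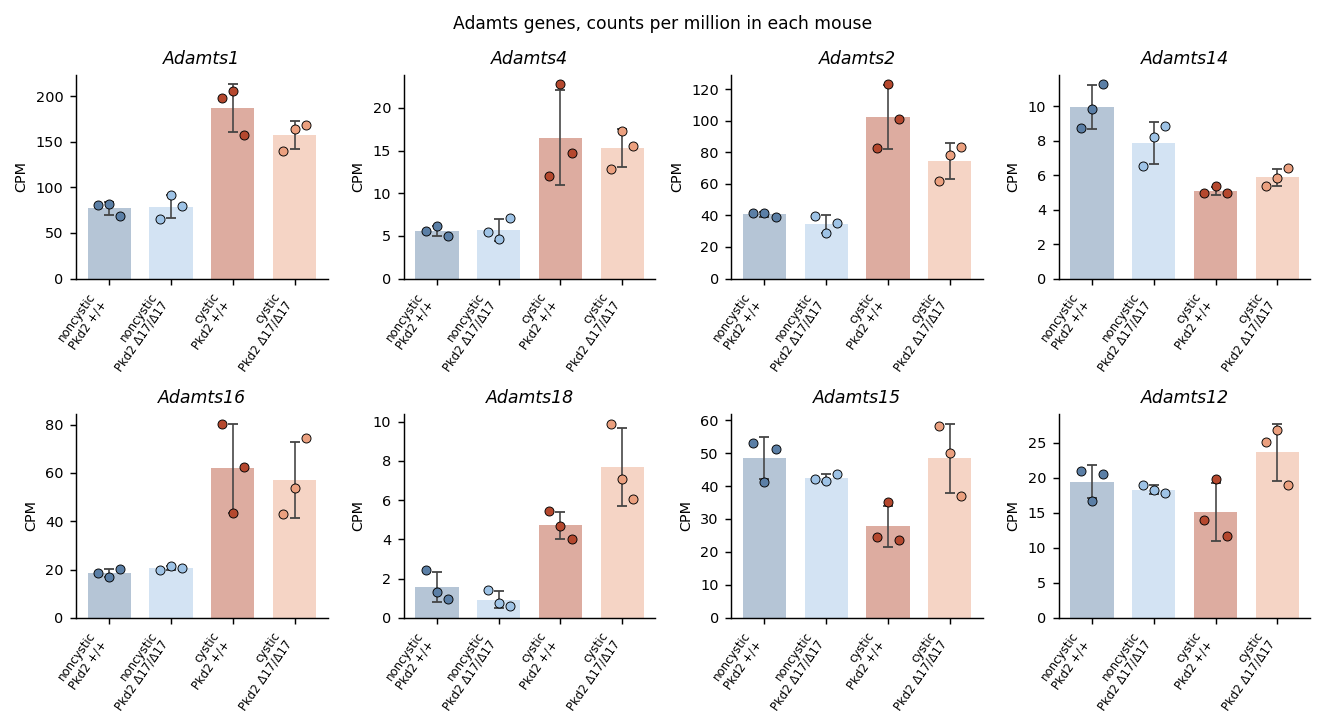
CPM (vertical axes, from 0) of 8 Adamts genes in each mouse (points), with the mean of 3 mice (bars) and SD (error bars) for each of the 4 groups. Adamts1, Adamts4, Adamts2, Adamts16 and Adamts18 stand higher in both cystic groups, and Adamts15 is low in the cystic Pkd2 +/+ group only, at 23.7 to 35.1 CPM.

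Adamts7 and Adamts12 cleave Comp, a matrix protein of cartilage and tendon. Adamts7 was at 22.02, 25.2 and 27.7 CPM in noncystic, 22.3, 19.6 and 21.02 in noncystic Pkd2 Δ17/Δ17, 29.2, 32.6 and 31.5 in cystic and 36.9, 37.7 and 29.1 in cystic Pkd2 Δ17/Δ17 mice. The rise of 0.32 ± 0.11 in Pkd2 +/+ mice (adjusted p = 0.044) did not hold in 9 of the 15 other settings, while that of 0.72 ± 0.11 in Pkd2 Δ17/Δ17 mice (adjusted p = 0.00019) held in all of them. Adamts12 was at 21.03, 16.7 and 20.6 CPM in noncystic, 18.96, 18.2 and 17.8 in noncystic Pkd2 Δ17/Δ17, 14.02, 19.8 and 11.7 in cystic and 25.1, 26.8 and 18.95 in cystic Pkd2 Δ17/Δ17 mice. For Adamts12 the deletion in cystic mice gave 0.64 ± 0.17 with an adjusted p of 0.059, just outside the threshold, and DESeq2 gave 0.012.

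The remaining Adamts genes fall outside these classes. Adamts10, which binds fibrillin microfibrils, was at 125, 113 and 123 CPM in noncystic and 152, 108 and 139.6 CPM in cystic Pkd2 +/+ mice, which overlapped (0.15 ± 0.10, adjusted p = 0.29), and at 118, 117 and 124 CPM in noncystic and 132, 138 and 146 CPM in cystic Pkd2 Δ17/Δ17 mice. Adamts6, its closest relative, was at 11.7, 6.73 and 9.31 CPM in noncystic, 9.26, 17.1 and 8.31 in noncystic Pkd2 Δ17/Δ17, 8.32, 5.09 and 5.56 in cystic and 6.49, 5.09 and 6.93 in cystic Pkd2 Δ17/Δ17 mice. It fell in Pkd2 Δ17/Δ17 mice (-0.91 ± 0.27, adjusted p = 0.022), a call that was lost without mouse 23, where the log2 difference was -0.53, without mouse 29 and with libraries scaled by their totals. In Pkd2 +/+ mice it did not pass (-0.54 ± 0.27, adjusted p = 0.15). Adamts17, at 28.7, 20.4 and 22.6 CPM in noncystic, 26.9, 17.6 and 19.04 in noncystic Pkd2 Δ17/Δ17, 7.82, 22.2 and 16.0 in cystic and 35.6, 29.1 and 23.8 in cystic Pkd2 Δ17/Δ17 mice, did not pass in any comparison. The deletion in cystic mice gave 0.95 ± 0.27 for Adamts17 (adjusted p = 0.082), with each Pkd2 Δ17/Δ17 library above each Pkd2 +/+ library.

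Adamts19 was called between cystic and noncystic Pkd2 Δ17/Δ17 mice on 1, 0 and 0 reads against 16, 4 and 1 reads (adjusted p = 0.046), and 7 of the 13 other settings that gave a value did not call it. Adamts13, which cleaves von Willebrand factor and is mainly a liver product, had 0 to 12 reads per library and did not pass in any comparison.

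Of the 5 Adamtsl genes, 1 passed in each genotype, Adamtsl5 in Pkd2 +/+ and Adamtsl2 in Pkd2 Δ17/Δ17 mice. Over all genes tested, 16.9% rose and 14.2% fell in Pkd2 +/+ mice, and 12.8% rose and 10.2% fell in Pkd2 Δ17/Δ17 mice. Adamtsl5, a fibrillin-binding protein, was at 4.88, 6.96 and 5.04 CPM in noncystic, 3.87, 5.24 and 4.35 in noncystic Pkd2 Δ17/Δ17, 10.6, 6.61 and 10.2 in cystic and 3.65, 4.35 and 7.55 in cystic Pkd2 Δ17/Δ17 mice. The noncystic and cystic Pkd2 +/+ groups overlapped, and the rise of 0.71 ± 0.26 (adjusted p = 0.046) did not hold in 6 of the 15 other settings. Adamtsl2, whose human counterpart is mutated in geleophysic dysplasia, was at 36.1, 29.6 and 43.4 CPM in noncystic, 29.05, 40.5 and 32.6 in noncystic Pkd2 Δ17/Δ17, 28.5, 19.9 and 25.2 in cystic and 13.5, 12.1 and 23.9 in cystic Pkd2 Δ17/Δ17 mice. It fell in Pkd2 Δ17/Δ17 mice (-1.05 ± 0.22, adjusted p = 0.0019) and was just outside the threshold in Pkd2 +/+ mice (-0.57 ± 0.21, adjusted p = 0.053), where 8 of the 15 other settings called it, DESeq2 among them. Adamtsl1 was at 16.8, 17.1 and 15.6 CPM in noncystic, 18.4, 17.3 and 16.0 in noncystic Pkd2 Δ17/Δ17, 10.4, 16.4 and 13.2 in cystic and 15.9, 18.0 and 14.1 in cystic Pkd2 Δ17/Δ17 mice. Adamtsl1, Adamtsl3 and Adamtsl4 did not pass in any comparison.

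In cystic kidneys, the deletion of the Pkd2 motif moved 2 of the 47 genes, Mmp12 lower and Adamts15 higher, each 2.13% of those tested, where over all genes 1.04% fell and 1.19% rose. An unadjusted p under 0.05 was seen for 11 of the 47, and the median log2 difference was -0.12 over the 47 genes and 0.00 over all genes. The other 9 were Adamts12, Adamts17, Adamts2, Adamtsl5, Mmp14, Adamts8, Timp1, Adamtsl2 and Adamts18. Without mice 27 and 30, 4 genes were called, Mmp12, Timp1 and Adamtsl2 lower and Adamts15 higher. Without mouse 28 or mouse 29 none was called, without mouse 27 only Mmp12, and without mouse 30 there were 6.

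**Figure D4:**
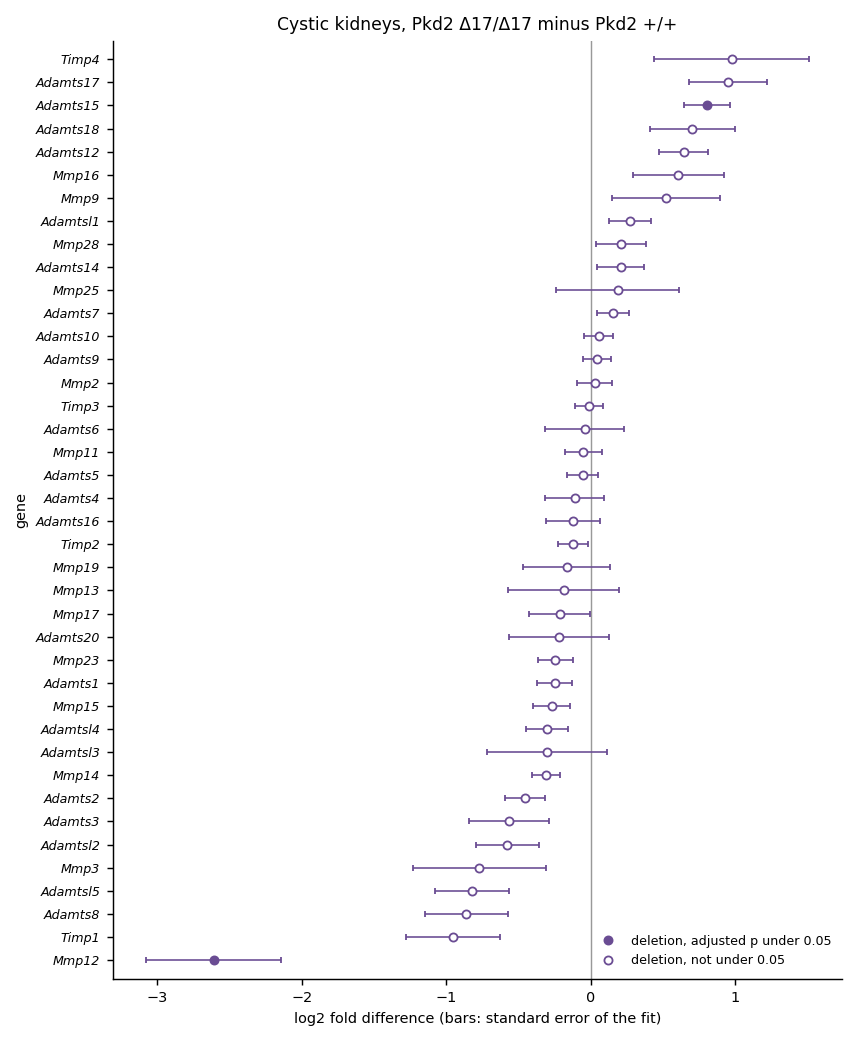
Log2 fold difference between Pkd2 Δ17/Δ17 and Pkd2 +/+ mice within the cystic kidneys (horizontal axis) of the 40 genes with at least 20 reads in some mouse. Bars are standard errors. The 2 filled points, Mmp12 at -2.61 and Adamts15 at 0.80, had an adjusted p under 0.05.

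In noncystic kidneys the deletion moved none of the 47 genes by edgeR's quasi-likelihood test, against 0.00406% of all genes tested, which was 1 gene. DESeq2 and limma called none of the 47 either. An unadjusted p under 0.05 was seen for 4, Mmp11, Adamts7, Adamts13 and Adamts14. Between cystic and noncystic Pkd2 Δ17/Δ17 mice, 16 of the 47 genes rose (34.0%) and 5 fell (10.6%), against 12.8% and 10.2% of all genes. Those that fell were Adamts6, Adamts9, Adamtsl2, Mmp9 and Timp4. Without mice 27 and 30 the counts were 15 and 4. The 2 comparisons of cystic with noncystic kidneys share no mouse. The comparison of states in Pkd2 +/+ mice and that of the deletion in cystic mice share the cystic Pkd2 +/+ mice. These mice enter the 2 with opposite sign, so a gene's opposite differences in them, as for Mmp12, Adamts15 and Pcsk6, are not independent. No gene of the family passed the test of the interaction, by which the deletion's effect would differ between states, against 0.0122% of all genes. An unadjusted p under 0.05 was seen for 7, and DESeq2 called 2, Adamts15 and Mmp12. Without mice 27 and 30, 1 was called, Mmp12.

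Levels can be compared between genes only per length, so the CPM were divided by the exon length in kilobases, which gives RPKM. Over all mice, Timp2 (51.0 RPKM), Timp3 (44.7), Mmp2 (33.8), Adamts1 (23.6) and Mmp14 (20.2) were the highest of the family. Between noncystic and cystic Pkd2 +/+ mice, mean RPKM went from 40.8 ± 3.77 to 66.9 ± 9.29 (SD, n = 3) for Timp2, from 45.7 ± 5.83 to 42.9 ± 3.07 for Timp3, from 24.1 ± 1.55 to 44.1 ± 7.63 for Mmp2, from 14.5 ± 1.35 to 35.3 ± 4.90 for Adamts1 and from 13.9 ± 0.934 to 30.3 ± 2.06 for Mmp14. In these noncystic mice Timp3 and Timp2 differed by less than the sum of their SDs, and in the cystic ones Timp2 stood above Timp3 by more than that. In noncystic Pkd2 Δ17/Δ17 mice Timp3, at 47.7 ± 2.60 RPKM, stood above Timp2, at 35.0 ± 3.58 RPKM, by more than the sum of their SDs. Adamts10 (15.5 RPKM over all mice), Mmp11 (11.7) and Mmp23 (11.1) followed.

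**Figure D5:**
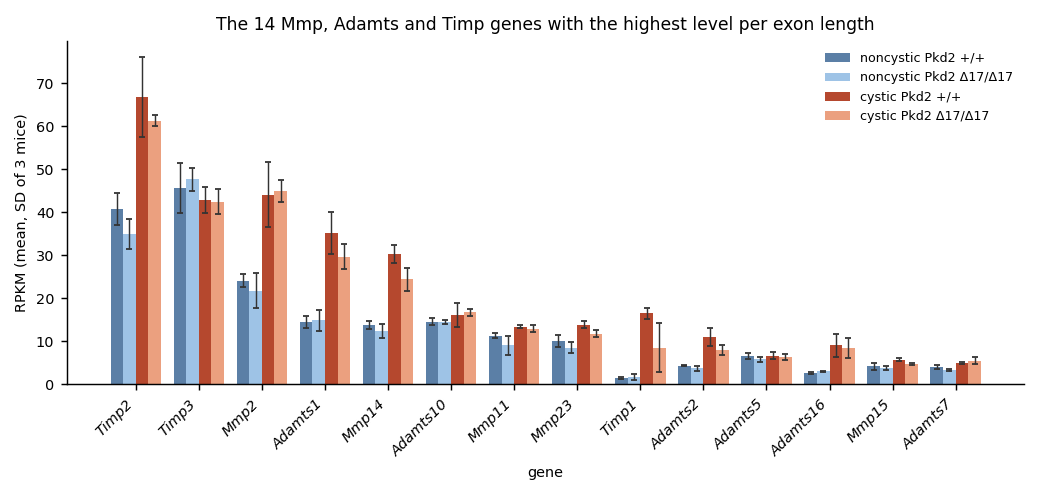
RPKM (vertical axis, mean of 3 mice, error bars SD) of the 14 genes of the family with the highest level over all mice, in each of the 4 groups. Timp2, Mmp2, Adamts1 and Mmp14 stand higher in the cystic groups, Timp3 and Adamts10 stay near their noncystic levels, and Timp1 moves from 1.503 to 16.5 RPKM in Pkd2 +/+ mice.

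Summed over the 23 Mmp genes, the level was 69.7 ± 2.66 RPKM in noncystic and 114 ± 10.8 RPKM in cystic Pkd2 +/+ mice. In Pkd2 Δ17/Δ17 mice the Mmp sum was 60.8 ± 7.99 RPKM without and 105 ± 1.70 RPKM with cysts. In the order of groups given at the start, the 4 Timp genes summed to 88.7 ± 3.61, 85.0 ± 1.80, 126 ± 6.604 and 113 ± 6.46 RPKM. The Adamts genes summed to 64.6 ± 2.59, 61.8 ± 1.20, 98.7 ± 4.65 and 94.8 ± 5.13 RPKM. The Adamtsl genes summed to 11.5 ± 1.04, 10.6 ± 1.54, 11.4 ± 1.18 and 8.72 ± 1.57 RPKM. The ratio of summed Timp to summed Mmp RPKM was 1.22 to 1.34 in noncystic, 1.25 to 1.57 in noncystic Pkd2 Δ17/Δ17, 1.06 to 1.15 in cystic and 1.002 to 1.14 in cystic Pkd2 Δ17/Δ17 mice, so the states did not overlap. The share of Timp1 in the summed Timp RPKM was 1.43% to 1.87% in noncystic and 1.26% to 2.75% in noncystic Pkd2 Δ17/Δ17 mice. It was 11.9% to 14.1% in cystic and 4.54% to 12.7% in cystic Pkd2 Δ17/Δ17 mice. These are ratios of transcripts, not of proteins or of active enzymes.

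Genes that act with the family were followed from lists. Of 13 genes for matrix substrates, 7 rose and none fell between cystic and noncystic Pkd2 +/+ mice, with a median log2 difference of 0.84, against 16.9% higher, 14.2% lower and a median of 0.02 over all genes. The 7 were Col1a1, Col1a2, Col3a1, Fn1, Eln, Fbn1 and Fbn2. Elastin (Eln), the substrate for which Mmp12 is named, was measured at 265, 281 and 208 CPM in noncystic, 229, 210.0 and 192 in noncystic Pkd2 Δ17/Δ17, 877, 677 and 659 in cystic and 307, 341 and 376 in cystic Pkd2 Δ17/Δ17 mice. It was the only one of the 13 to pass for the deletion in cystic mice (-1.11 ± 0.13, adjusted p = 0.00070), with each Pkd2 Δ17/Δ17 library below each Pkd2 +/+ library. The collagen I gene Col1a1 rose by 1.47 ± 0.15 between states in Pkd2 +/+ mice (adjusted p = 1.4e-06), and its difference with the deletion was -0.53 ± 0.15 (adjusted p = 0.074).

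Of 7 activators of the enzymes, 1 rose and 2 fell between cystic and noncystic Pkd2 +/+ mice, again beside 16.9% and 14.2% of all genes. Pcsk6, a proprotein convertase, fell from 36.1, 36.7 and 41.5 CPM to 16.96, 24.6 and 17.6 CPM (-0.95 ± 0.12, adjusted p = 1.5e-05) and rose with the deletion in cystic mice, to 28.4, 32.6 and 28.4 CPM (0.60 ± 0.12, adjusted p = 0.019). The tissue plasminogen activator Plat fell (-0.53 ± 0.14, adjusted p = 0.0079). The 1 called higher, the plasminogen gene Plg, was at 10.3 CPM in mouse 25 and at most 0.147 CPM in the other 2 of its group. Among the inhibitors outside the Timp genes, Serpine2 rose and Tfpi2 and Papln fell. The membrane inhibitor Reck, at 29.5, 40.1 and 31.1 CPM in cystic Pkd2 +/+ and 48.3, 45.5 and 41.5 CPM in cystic Pkd2 Δ17/Δ17 mice, did not pass for the deletion (0.43 ± 0.11, adjusted p = 0.051).

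Of 12 other metzincin proteases tested, 6 rose and 3 fell between states in Pkd2 +/+ mice, and 3 rose with the deletion in cystic mice, where over all genes 16.9% rose and 14.2% fell between states and 1.19% rose with the deletion. The 3 were Tll1, Mep1a and Mep1b, and all 3 were also those that fell between states. Both comparisons use the cystic Pkd2 +/+ mice, so the fall and the rise are not independent. The meprin gene Mep1b, expressed in proximal tubules, was at 152, 132 and 148 CPM in noncystic, 145, 163 and 136 in noncystic Pkd2 Δ17/Δ17, 87.8, 74.8 and 53.3 in cystic and 139, 144 and 115 in cystic Pkd2 Δ17/Δ17 mice, with a difference of 0.88 ± 0.14 with the deletion (adjusted p = 0.0041). Bmp1, the procollagen C-proteinase, rose between states (0.61 ± 0.07, adjusted p = 8.2e-06). Of 8 cell surface partners, 3 rose and 3 fell between states in Pkd2 +/+ mice, beside the same shares of all genes, among them the hyaluronan receptor Cd44 (1.56 ± 0.23, adjusted p = 6.1e-05) and the clearance receptor Lrp2 (-1.26 ± 0.15, adjusted p = 4.9e-06).

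Markers of stromal and vascular cell types moved with cystic state. Between cystic and noncystic Pkd2 +/+ mice, 6 of 10 fibroblast markers rose and 2 fell, beside 16.9% and 14.2% of all genes tested. The list summed to 2176 to 2379 CPM in noncystic, 3230 to 4710 CPM in cystic and 3012 to 4013 CPM in cystic Pkd2 Δ17/Δ17 mice. It includes Col1a1, Col1a2 and Col3a1, which were already given among the substrates. Beside the same shares, 3 of 6 mural and smooth muscle markers rose, from a summed 316 to 427 CPM to 533 to 861 CPM. Of 7 endothelial markers 4 fell, from a summed 629 to 703 CPM to 440.1 to 502 CPM. None of the markers in these lists was at 0 in all mice. Their part in the differences of the Mmp, Adamts and Timp genes was not tested.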

How the data were processed

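Total RNA of whole, flash-frozen kidneys was sequenced in 12 mice. The authors trimmed reads with Trim Galore 0.6.3, aligned them with STAR 2.5.3a to GRCm38 with Ensembl annotation, and deposited raw counts per gene in one table. The strand column taken from STAR is not given in the sources used here. Of the 54532 rows, 343 had no gene name, with 0.0225% of reads. They are not among the genes described here, which were chosen by gene name.

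Counts were tested in R 4.3.3 with edgeR 4.0.16 (glmQLFit and glmQLFTest, TMM scaling, a mean for each of the groups fitted to the 12 mice at once, residual df 8). Genes with a mean log2 CPM of at least -3 (prior count 2) were kept, 24642 in all. Benjamini-Hochberg adjustment ran over all of them, with a threshold of 0.05. The study's own method, limma-trend with library totals (limma 3.58.1), DESeq2 1.42.0, other scalings and cutoffs, an Xist covariate, fits of the compared groups alone and fits without each mouse were alternatives. The fit without mice 27 and 30 was added after the data were seen. The scripts were tested on simulated data. RPKM was computed from TMM-scaled CPM and the union of GENCODE M21 exons. Fold differences are printed for genes with at least 20 reads in some mouse. Their standard errors were derived as the absolute log2 difference divided by the square root of the quasi-likelihood test's F statistic. Within groups, chi-square per degree of freedom between pairs of libraries was 8.88 to 24.3, so no library repeats another. Depth limits precision for genes with few reads, such as Mmp12 with 6 to 143. The labels do not state that mice of a group came from separate litters, so p-values cover the spread between these mice.

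The genes and lists were chosen with earlier results of these data known. Values per mouse are given for the 4 Timp genes, for every gene that passed between the cystic groups and, in each class, for up to 3 genes with the smallest adjusted p between cystic and noncystic Pkd2 +/+ mice. Others are given in ranges. One gene of the lists of related genes is not reported here.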

Additional observations from a re-analysis of the deposited data

How the results depend on the processing

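Of the 25 calls between cystic and noncystic Pkd2 +/+ kidneys, 16 held under all 15 alternatives, and the number called ran from 19 to 29, and from 19 to 28 in fits without 1 mouse. Scaling by library totals moved the median of all genes by 0.16 on the log2 scale and gave 23 genes higher and 4 lower in place of 19 and 6, and limma-trend gave the same split. For the motif deletion in cystic kidneys, in place of 2 genes DESeq2 called 5, a fit with no cutoff 9, a fit of the 2 groups alone 0, the fit without mice 27 and 30 4, and fits without 1 mouse 0 to 6. For the interaction, in place of 0 genes DESeq2 called 2, a fit with no cutoff 5, the fit without mice 27 and 30 1, and fits without 1 mouse 0 to 2. The share of all genes called under each alternative is not given here, so these counts cannot be set against all genes. In these cases the cause of the change in number was not tested. In noncystic kidneys the deletion gave 0 under every alternative, and between cystic and noncystic Pkd2 Δ17/Δ17 kidneys 16 to 24 genes were called.

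Alternatives were run for 95 differences of single genes, and among these the sign turned for 4, of Adamts5, Timp3 and Mmp2, all near 0. Between cystic and noncystic Pkd2 +/+ mice, Adamts5 went from -0.0051 to 0.151 with limma-trend, 0.153 with library totals, 0.0192 with an Xist covariate and -0.105 to 0.0892 without 1 mouse, and Timp3 from -0.0937 to 0.0701 with limma-trend and 0.0652 with library totals. With the deletion in cystic mice and 1 mouse left out, Mmp2 ran from -0.0684 to 0.175 and Timp3 from -0.0687 to 0.0488. No paired analysis was possible because the mice carry numbers that no 2 groups share. Genes with few reads are limited by depth.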
